A study of Homo sapiens with 6 samples.

Results

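The transcripts of the mitochondrial genome were followed in 6 bulk RNA-seq libraries of UMUC3 cells, a long-established line from a human bladder carcinoma. Every gene whose symbol in the deposited tables begins with MT- was taken. These were 37 of the 60233 genes with TPM values (a level scaled for gene length and library total), namely 13 mRNAs, 2 rRNAs and 22 tRNAs. The table of estimated counts listed 25 of them among 21503 genes: the 13 mRNAs, both rRNAs and 10 tRNAs. A filter on low counts left 21 of them among 19430 genes for testing, which were the 13 mRNAs, both rRNAs and 6 tRNAs. In all libraries the cells had grown for 14 days in the bladder of C57 nude mice. The 3 control libraries came from control UMUC3 and the 3 knockdown libraries from UMUC3 with GANAB knocked down, GANAB being the catalytic subunit of an endoplasmic reticulum glucosidase that trims N-glycans. How the knockdown was made, what the control cells carried, whether either line was 1 clone and how old the mice were is not stated in the labels. Nor do they say that each library had its own animal, so p-values measure only the spread between these libraries, which may be technical.

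GANAB itself was at 685, 825 and 661 CPM (counts per 1000000, with TMM scaling of library sizes) in the controls, taken in the order of libraries 1, 2 and 3 here and below, and at 232, 238 and 231 CPM in the knockdown libraries (log2 fold change -1.63, edgeR adjusted p = 0.00239). Library totals ran from 11737837 to 40039584 estimated counts, with control library 3 the smallest. The biological coefficient of variation was 53.5% among the control libraries and 10.7% among the knockdown libraries. Of 15 urothelial and epithelial markers of the tumour line, 13 were in the count table and KRT20 and UPK3A were at 0 TPM in all 6 libraries, while KRT18, the most abundant, stood at 180 ± 60.9 CPM in controls and 193 ± 9.70 CPM in knockdown (SD, n = 3 each). Of the 12 tested, 2 were higher in knockdown, UPK1A (7.89-fold, edgeR adjusted p = 0.0251) and FOXA1 (2.33-fold, 0.0281), and edgeR called 3 without control library 1. Both genes were low, with means of 0.483 CPM in controls and 3.76 CPM in knockdown for UPK1A and of 3.39 and 7.89 CPM for FOXA1. Over all tested genes edgeR called 8.31%. Control library 1 stood apart from the other libraries in its mitochondrial rRNA and in RNAs of the nucleus and cytosol that carry no poly(A) tail, and the fits for the members and counts over lists that it changed are also given without it.

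The human mitochondrial genome is a small circle that is transcribed from both strands into long precursors carrying many genes. The tRNAs lie between most of the other genes, and cutting them out at both ends releases the rRNAs and mRNAs, which then receive short adenine tails. The mRNAs all encode core subunits of the respiratory chain and of ATP synthase, the rRNAs build the mitochondrial ribosome, and the tRNAs serve translation inside the organelle.

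Sequences from GENCODE release 29 (GRCh38) show how tightly these genes are packed and where reads cannot be given to 1 gene alone. MT-ATP8 and MT-ATP6, subunits of ATP synthase, share 46 bases, which are in capitals in the first line (chrM:8512-8587, plus strand). MT-ND4L and MT-ND4, subunits of complex I, share the 7 bases in capitals in the second line (chrM:10735-10791, plus strand).
MT-ATP8 and MT-ATP6: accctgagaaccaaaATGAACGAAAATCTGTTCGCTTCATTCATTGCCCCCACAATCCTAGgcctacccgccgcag
MT-ND4L and MT-ND4: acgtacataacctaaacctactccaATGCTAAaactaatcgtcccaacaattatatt
The capitals open with the start codon of the downstream gene and close with the stop codon of the upstream gene, and each pair is known to be carried on a single mRNA.

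The 3′ ends of MT-ND2 and MT-ND3, the mRNAs that passed the test below, are shown with the first 30 bases of the tRNA that follows in capitals (chrM:5472-5541 and chrM:10365-10434, plus strand). In each case the coding sequence stops at a single T and the tRNA begins at the next base.
MT-ND2 and MT-TW: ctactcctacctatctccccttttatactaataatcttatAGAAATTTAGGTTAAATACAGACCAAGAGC
MT-ND3 and MT-TR: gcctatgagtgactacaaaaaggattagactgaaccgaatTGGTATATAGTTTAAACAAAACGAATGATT
Their stop codons are completed by the adenine tail after cleavage, which is known for mitochondrial mRNAs. By annotated length, 6 of the 13 mRNAs end in such an incomplete stop codon (MT-ND1, MT-ND2, MT-CO3, MT-ND3, MT-ND4 and MT-CYB) and 7 in a whole codon. Among the 7, MT-CO1 ends in AGA and MT-ND6 in AGG. The last base of MT-ATP6 is also the first base of MT-CO3 (chrM:9207), so this split holds for the annotation and not for the cleaved mRNAs.

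Over all 6 libraries mitochondrial mRNA made up a steadier part of the counts than mitochondrial rRNA, which rested on control library 1. Between control libraries 2 and 3 the mRNA share differed more than the rRNA share. The 13 mRNAs together took 3.41%, 3.36% and 1.25% of all counts in control libraries 1, 2 and 3 and 3.98%, 3.66% and 4.16% in knockdown libraries 1, 2 and 3. All knockdown libraries were above all controls, and control library 3 was the low one. The group values were 2.68% ± 1.23 and 3.93% ± 0.253 (SD, n = 3 each). In CPM the 13 mRNAs summed to 45689.6, 31706.9 and 12089.8 in the controls and to 37201.9, 34120.9 and 39218.4 in knockdown. On that scale control library 1 was the highest of the 6 and the groups overlapped. The 2 rRNAs took 29.2%, 1.10% and 0.928% of counts in the controls and 2.43%, 2.11% and 2.37% in the knockdown libraries. Control library 1 lay far above the 5 others, and control libraries 2 and 3 lay below every knockdown library. The 10 tRNAs with counts summed to 260, 49 and 20 counts in the controls and to 181, 111 and 128 counts in the knockdown libraries. No exact permutation test of 3 against 3 libraries can give a two-sided p below 0.10, so these shares were not put to a test.

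**Figure D1:**
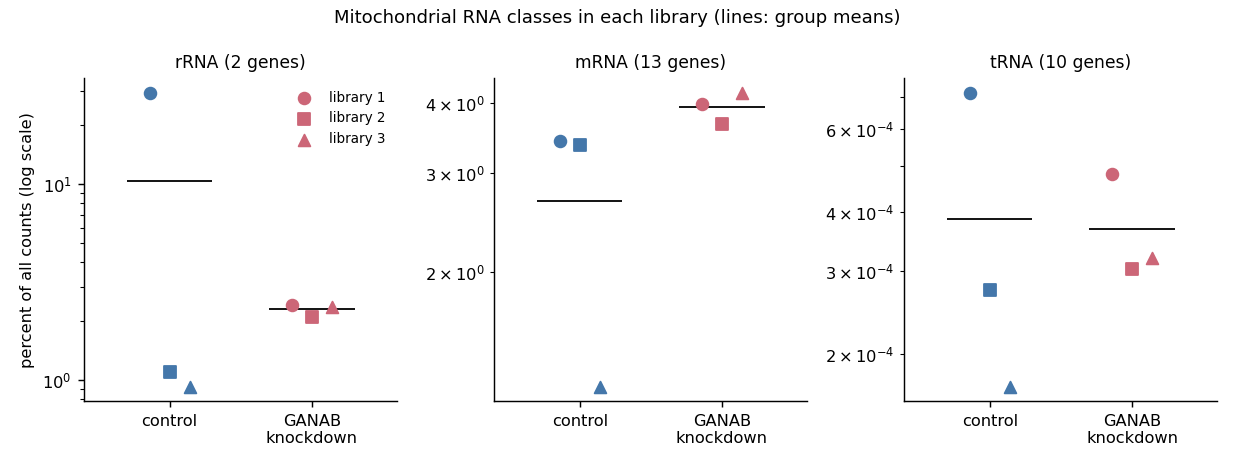
Percent of all estimated counts taken by mitochondrial rRNA, mRNA and tRNA (log scale, each panel with its own range) in the 3 control (blue) and 3 GANAB knockdown (red) libraries; symbols mark library number and lines the group means. Control library 1 stands at 29.2% rRNA, while the other 5 libraries lie between 0.928% and 2.43%.

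In a fit across all 19430 tested genes, edgeR's quasi-likelihood test called 8.31% changed between knockdown and control at an adjusted p under 0.05, 4.59% higher and 3.72% lower in knockdown. Of the 13 mitochondrial mRNAs, 2 were called, both higher (MT-ND2 and MT-ND3). None of the 2 rRNAs and none of the 6 tested tRNAs was called by edgeR, and none of these 8 had an unadjusted p under 0.05. Neither limma-voom, with or without quality weights, nor DESeq2 called a tRNA, limma-voom called no rRNA either, and DESeq2 gave no adjusted p for the rRNAs. Without control library 1, edgeR called 7.89% of all genes, and among the members it called both rRNAs, MT-ND2, MT-ND3 and MT-ND4L, all higher in knockdown. The control and knockdown CPM did not overlap for 4 of the 13 mRNAs (MT-ND2, MT-ND3, MT-CO2 and MT-CO3) and for no rRNA or tested tRNA, against 37.6% of all tested genes.

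MT-RNR1 (ENSG00000211459, chrM:648-1601, plus strand) encodes the rRNA of the small subunit of the mitochondrial ribosome. The controls held 157119.5, 1361 and 1343 CPM of it and the knockdown libraries 3793, 3073 and 3363 CPM. Control library 1 was far above all others, and the remaining controls were below every knockdown library. With all 6 libraries the fitted log2 fold change was -3.97 (SE 1.73, edgeR adjusted p = 0.199). Without control library 1 it was 1.31 (SE 0.135, edgeR adjusted p = 0.0145), a 2.48-fold rise. Without control library 2 the fit gave -4.54 and called the gene lower (edgeR adjusted p = 0.0450). The direction of MT-RNR1 thus turned with a single control library.

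MT-RNR2 (ENSG00000210082, chrM:1671-3229, plus strand), the rRNA of the large subunit, stood at 233592, 8997 and 7620 CPM in the controls and at 18900.9, 16564.5 and 19017.3 CPM in the knockdown libraries. As for MT-RNR1, control library 1 was highest and the other controls were lowest. Its log2 fold change came to -2.20 over all 6 (SE 1.22, edgeR adjusted p = 0.305) and 1.10 without control library 1 (SE 0.138, edgeR adjusted p = 0.0210). In the latter fit MT-RNR2 was 2.14-fold higher in knockdown.

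The balance of the rRNAs also set control library 1 apart. Per length, as a ratio of TPM, MT-RNR1 stood at 1.18 of MT-RNR2 in control library 1 and at 0.269 and 0.310 in control libraries 2 and 3. The knockdown libraries gave 0.351, 0.326 and 0.310. There were 8.55 rRNA counts for each mitochondrial mRNA count in control library 1, 0.327 and 0.741 in the other controls, and 0.610, 0.576 and 0.571 in the knockdown libraries. Control libraries 2 and 3 thus lay on either side of the knockdown libraries in this measure.

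RNAs of the nucleus and cytosol that carry no poly(A) tail were, as a sum, also highest in control library 1. Of 20 such RNAs, 8 were tested. Their summed level was 3266 CPM in control library 1, 43.0 and 116 CPM in control libraries 2 and 3, and 226, 194 and 182 CPM in knockdown libraries 1, 2 and 3. By this sum control library 1 was highest and the other controls lowest, as they were for both mitochondrial rRNAs. Single RNAs differed in control library 3. There RN7SK stood at 16.3 CPM, below the 79.9 to 90.1 CPM of knockdown, and RN7SL1 at 26.9 CPM, below 27.2 to 44.1 CPM. RN7SL2 stood at 38.2 CPM, above the 13.5 to 18.5 CPM of knockdown. edgeR called none of the 8 changed (unadjusted p under 0.05 for 3), DESeq2 called 1 and limma-voom with quality weights 2. Over all genes these shares were 8.31%, 18.8% and 19.1%. edgeR called 2 of the 8 without control library 1, beside 7.89% of all genes. RN7SL1, an RNA of the signal recognition particle, gave over all 6 libraries a log2 fold change of -3.48 (edgeR adjusted p = 0.184). The part of RNA selection in the rRNA values was not tested.

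Of the 7 mitochondrial mRNAs for complex I, the entry point of electrons from NADH, 2 rose in knockdown. MT-ND2 (ENSG00000198763, chrM:4470-5511, plus strand), a core membrane subunit of complex I, stood at 3469, 2082 and 1243 CPM in the controls and at 7051, 6494 and 7696 CPM in the knockdown libraries. The lowest knockdown library was above the highest control. MT-ND2 was 3.13-fold higher in knockdown (log2 fold change 1.64, SE 0.348, edgeR adjusted p = 0.0314). Without control library 1 the log2 fold change was 2.05 (edgeR adjusted p = 0.0227). The call was lost when any knockdown library was left out, with edgeR adjusted p between 0.127 and 0.152, while the log2 fold change stayed between 1.58 and 1.71.

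MT-ND3 (ENSG00000198840, chrM:10059-10404, plus strand), a small membrane subunit of complex I, stood at 491, 384 and 189 CPM in the controls and at 1128, 964 and 1167 CPM in the knockdown libraries. The groups did not overlap. MT-ND3 was 3.06-fold higher in knockdown (log2 fold change 1.61, SE 0.325, edgeR adjusted p = 0.0280), and 1.88 on the log2 scale without control library 1 (edgeR adjusted p = 0.0376). Its call, too, was lost without any one of the knockdown libraries, with edgeR adjusted p between 0.112 and 0.138, while the log2 fold change stayed between 1.56 and 1.70. Leaving out a knockdown library lowered the number of genes called over the whole table to between 62 and 115.

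The other complex I mRNAs did not pass the test. MT-ND1, a membrane subunit of complex I near its quinone site, stood at 2259, 1380 and 412 CPM in the controls and at 2195, 1939 and 2219 CPM in the knockdown libraries, which overlapped (log2 fold change 0.65, SE 0.511, edgeR adjusted p = 0.479). MT-ND4, a proton-pumping subunit, stood at 6482, 4188 and 1777 CPM in the controls and at 4916, 4523 and 5086 CPM in knockdown. Its knockdown values lay inside the control range (log2 fold change 0.22, SE 0.405, edgeR adjusted p = 0.782). MT-ND4L, which shares its mRNA with MT-ND4, stood at 854, 285 and 204 CPM in the controls and at 588, 586 and 643 CPM in knockdown. The fit gave a log2 fold change of 0.44 over all 6 (SE 0.485, edgeR adjusted p = 0.633) and 1.28 without control library 1 (SE 0.193, edgeR adjusted p = 0.0292), so the call depended on that library.

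MT-ND5, another proton-pumping subunit, stood at 4261, 1632 and 486 CPM in the controls and at 1209, 1153 and 1304 CPM in knockdown. The controls spanned 8.77-fold, the knockdown libraries lay within their range, and the log2 fold change of -0.80 did not pass (SE 0.640, edgeR adjusted p = 0.487). MT-ND6 (ENSG00000198695) is the only mRNA of the 13 on the minus strand. The controls held 198, 73.0 and 9.05 CPM of it and the knockdown libraries 27.8, 22.7 and 21.9 CPM. Its controls spanned 21.8-fold, the widest range among the 13 mRNAs, and lay on both sides of the knockdown libraries. The log2 fold change of MT-ND6 was -1.95 with all libraries (SE 0.852, edgeR adjusted p = 0.199) and -2.53 without control library 3 (SE 0.397, edgeR adjusted p = 0.0229). Without control library 1 it was -0.83 (SE 0.762, edgeR adjusted p = 0.521), a 1.77-fold difference in place of 3.87-fold.

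**Figure D2:**
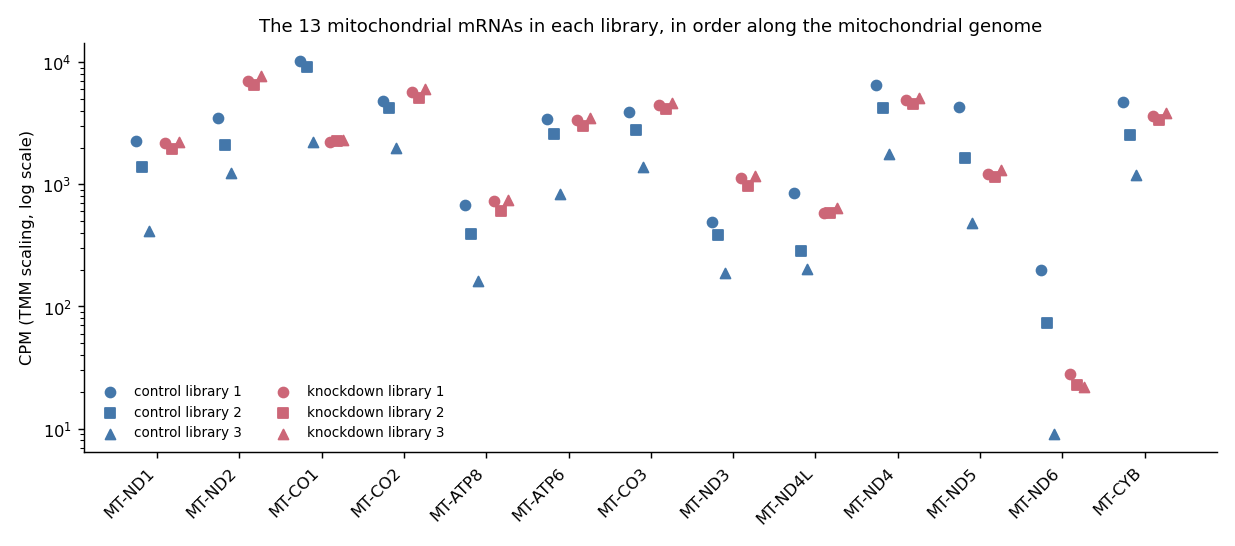
Level of each of the 13 mitochondrial mRNAs in CPM (log scale) in the 3 control (blue) and 3 GANAB knockdown (red) libraries, with the genes in order along the mitochondrial genome. The knockdown libraries cluster closely for every gene, while MT-ND6 spans 21.8-fold among the controls; for MT-ND2 and MT-ND3 the groups do not overlap.

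MT-CYB, cytochrome b and the only mitochondrial subunit of complex III, stood at 4702, 2533 and 1193 CPM in the controls and at 3600, 3380 and 3845 CPM in knockdown. All knockdown values lay inside the control range (log2 fold change 0.36, SE 0.428, edgeR adjusted p = 0.657).

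The 3 mRNAs for complex IV, cytochrome c oxidase, did not share a direction. MT-CO1 (ENSG00000198804, chrM:5904-7445, plus strand), its catalytic core, stood at 10171.5, 9126 and 2209 CPM in the controls and at 2230, 2248 and 2287 CPM in the knockdown libraries. Control libraries 1 and 2 were far above the knockdown libraries, and control library 3 was just below them. The log2 fold change of MT-CO1 was -1.67 and did not pass with all libraries (SE 0.497, edgeR adjusted p = 0.0808). DESeq2, which called 18.8% of all genes, and limma-voom with quality weights, which called 19.1%, gave adjusted p of 0.0033 and 0.0198 for MT-CO1. Without control library 1 the edgeR value was -1.38 (SE 0.547, edgeR adjusted p = 0.161). Without control library 3, where 8.66% of all genes were called, it was -2.15 and passed (SE 0.0966, edgeR adjusted p = 0.00297).

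MT-CO2, which takes electrons from cytochrome c, stood at 4794, 4255 and 1997 CPM in the controls and at 5696, 5080 and 6069 CPM in knockdown. The groups did not overlap, and the log2 fold change of 0.61 did not pass (SE 0.309, edgeR adjusted p = 0.265). MT-CO3, a core subunit of the same complex, stood at 3878, 2809 and 1374 CPM in the controls and at 4493, 4105 and 4621 CPM in knockdown. It likewise did not overlap and did not pass (log2 fold change 0.71, SE 0.339, edgeR adjusted p = 0.237).

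Both mRNAs for ATP synthase gave values above 0 that did not pass. MT-ATP8 stood at 674, 389 and 162 CPM in the controls and at 729, 610 and 742 CPM in knockdown (log2 fold change 0.76, SE 0.442, edgeR adjusted p = 0.329). MT-ATP6, part of the proton channel, stood at 3456, 2571 and 835 CPM in the controls and at 3339, 3016 and 3517 CPM in knockdown (log2 fold change 0.52, SE 0.443, edgeR adjusted p = 0.512). In both genes control library 1 lay among the knockdown libraries. Per length, MT-ATP8 stood at 1.30, 1.15 and 1.32 of MT-ATP6 in the controls and at 1.39, 1.38 and 1.43 in the knockdown libraries.

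Over the 13 mRNAs the median log2 fold change was 0.52, with a range of -1.95 to 1.64, beside a median of 0.03 over all tested genes and of -0.13 over the 1798 tested genes with a mean of at least 100 CPM. Of the 13 fitted values, 10 were above 0 and 3 below (MT-CO1, MT-ND5 and MT-ND6). The median of the 13 rested in part on single controls, being 0.91 without control library 1 and 0.08 without control library 3. In that last fit MT-ND4 and MT-CYB had values below 0, and without control library 1 MT-ND5 had a value above 0.

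**Figure D3:**
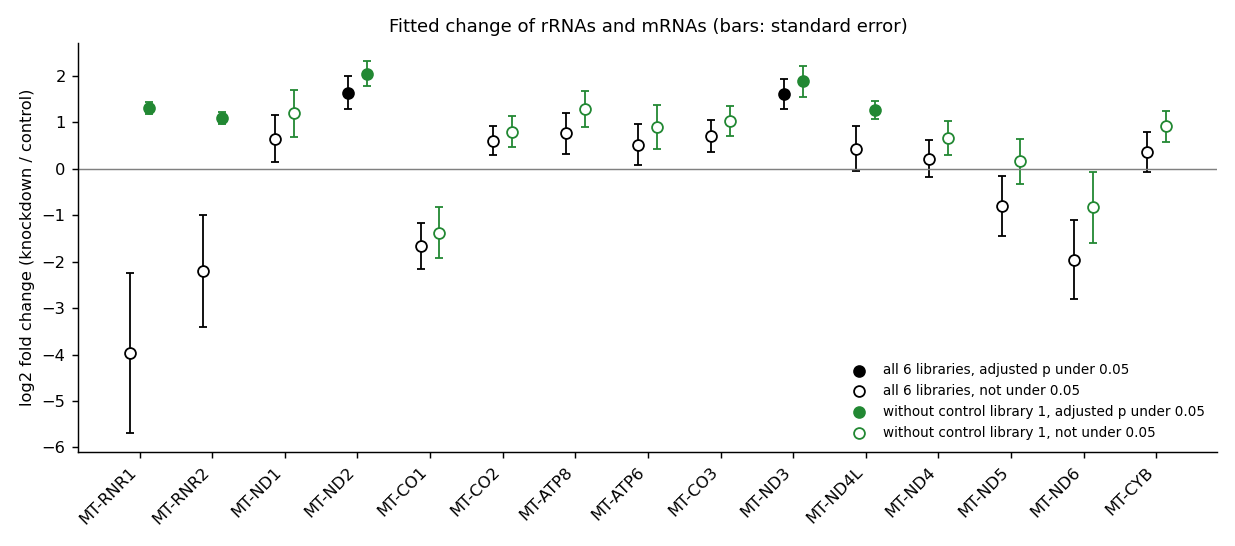
Fitted log2 fold change (knockdown over control, with its standard error) of both rRNAs and the 13 mRNAs, with all 6 libraries (black) and without control library 1 (green); filled points have an edgeR adjusted p under 0.05. MT-RNR1 and MT-RNR2 move from -3.97 and -2.20 to 1.31 and 1.10, while MT-ND2 and MT-ND3 stay above 0 and filled in both fits.

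Each gene was also expressed as a share of the TPM of the 13 mRNAs, a measure that depends only on the balance among them and not on the rest of the library. MT-CO2 was the most abundant mRNA per length in all 6 libraries and MT-ND6 the least. MT-CO1 made up 11.2%, 14.5% and 8.62% of the pool in control libraries 1, 2 and 3 and 2.57%, 2.81% and 2.46% in knockdown libraries 1, 2 and 3. The groups lay well apart here, in control library 3 as well, although its CPM of MT-CO1 was that of the knockdown libraries. In order of TPM among the 13, MT-CO1 ranked 3, 2 and 4 in the controls and 11 in every knockdown library.

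MT-ND2 made up 5.98%, 5.20% and 7.59% of the pool in the controls and 12.7%, 12.7% and 12.9% in knockdown, and MT-ND3 3.74%, 4.57% and 5.23% against 8.80%, 8.48% and 8.78%. Every knockdown library exceeded every control for both genes. MT-ND5 took 3.95%, 2.16% and 1.59% in the controls and 1.17%, 1.20% and 1.17% in knockdown. MT-ND6 took 0.807%, 0.448% and 0.133% in the controls and 0.117%, 0.106% and 0.0877% in knockdown. For these 2 genes control library 3 was nearest to the knockdown libraries and control library 1 farthest above them. MT-ND4 (7.84% ± 0.292 in controls, 6.34% ± 0.119 in knockdown) and MT-ATP8 (12.3% ± 0.834 and 13.9% ± 0.259; SD, n = 3 each) did not overlap either. The remaining 6 genes overlapped. On the CPM scale 37.6% of all tested genes did not overlap, and no such background is given here for shares of a pool.

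**Figure D4:**
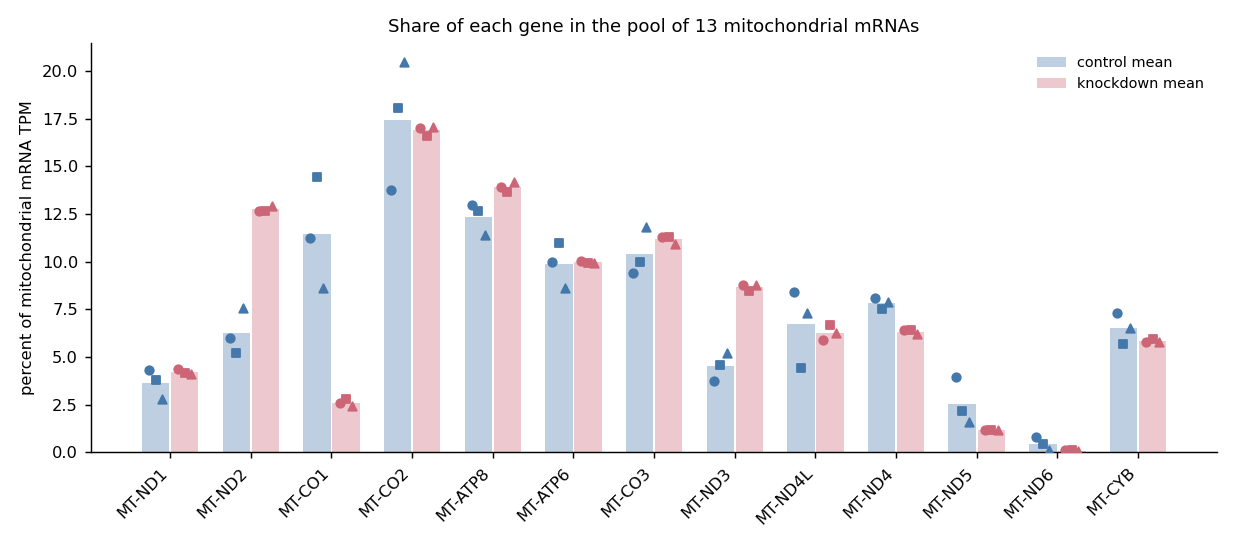
Share of each gene in the summed TPM of the 13 mitochondrial mRNAs, in percent; bars are group means and points are libraries (control blue, GANAB knockdown red, symbols by library number). MT-CO1 lies at 8.62% to 14.5% in controls and 2.46% to 2.81% in knockdown, and MT-ND2 at 5.20% to 7.59% against 12.7% to 12.9%.

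By complex, the 7 complex I mRNAs together took 35.3%, 28.2% and 32.5% of the pool in the controls and 39.4%, 39.7% and 39.6% in knockdown. The 3 complex IV mRNAs took 34.4%, 42.5% and 40.9% in the controls and 30.9%, 30.7% and 30.5% in knockdown. Neither measure overlapped between groups, but the genes within each complex did not move together. In complex I, MT-ND2 and MT-ND3 had higher shares in every knockdown library. MT-ND4, MT-ND5 and MT-ND6 had lower shares in every knockdown library, and MT-ND1 and MT-ND4L overlapped. In complex IV only MT-CO1 did not overlap, while MT-CO2 and MT-CO3 did. Complex III (6.51% ± 0.812 in controls, 5.86% ± 0.0676 in knockdown) and complex V (22.2% ± 1.93 and 23.9% ± 0.271; SD, n = 3 each) did overlap. A change in 1 gene's share moves the shares of all the others, so these values are not independent of each other.

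Ratios between single mRNAs do not depend on the rest of the pool, but they come from the same TPM values as the shares. A separation in pairs with MT-CO1, MT-ND2 or MT-ND3 is therefore no independent result. No background of non-overlap is given for ratios. Per length, MT-CO1 stood at 0.816, 0.800 and 0.421 of MT-CO2 in the controls and at 0.151, 0.169 and 0.144 in the knockdown libraries. MT-ND3 stood at 0.398, 0.458 and 0.442 of MT-CO3 in the controls and at 0.778, 0.750 and 0.803 in knockdown. The ratio of MT-ND2 to MT-ND1 was 1.39, 1.36 and 2.73 in the controls and 2.91, 3.03 and 3.13 in knockdown. None of these 3 ratios overlapped between groups, with control library 3 nearest to the knockdown libraries in MT-CO1 over MT-CO2 and in MT-ND2 over MT-ND1. The ratios of MT-ND4L to MT-ND4, of MT-ND6 to MT-ND5 and of MT-CO3 to MT-ATP6 did overlap.

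Levels within the pool were more even in control library 1 than elsewhere. Among the 12 plus-strand mRNAs the highest TPM was 3.69 times the lowest in control library 1, 8.37 and 12.9 times in control libraries 2 and 3, and 14.6, 13.8 and 14.5 times in the knockdown libraries. Control library 1, with the most even pool, was also the library with the most mitochondrial rRNA.

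Length, base composition and position were set against the log2 fold changes as a description, since the 13 values come from the same 6 libraries. Over the 13 mRNAs the Pearson correlation of log2 fold change was -0.39 with length, -0.23 with GC percent and -0.36 with distance from the 5′ end of MT-TF. Without MT-ND6, the minus-strand gene, these were -0.67, -0.45 and -0.13. Along the plus strand, MT-CO1, at -1.67, lies between MT-ND2, at 1.64, and MT-CO2, at 0.61, while the 7 mRNAs from MT-CO2 to MT-ND4 all had values above 0. The 6 mRNAs annotated with an incomplete stop codon had log2 fold changes of 0.22 to 1.64 (median 0.68). The 7 annotated with a whole last codon had -1.95 to 0.76 (median 0.44), and the ranges overlap.

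**Figure D5:**
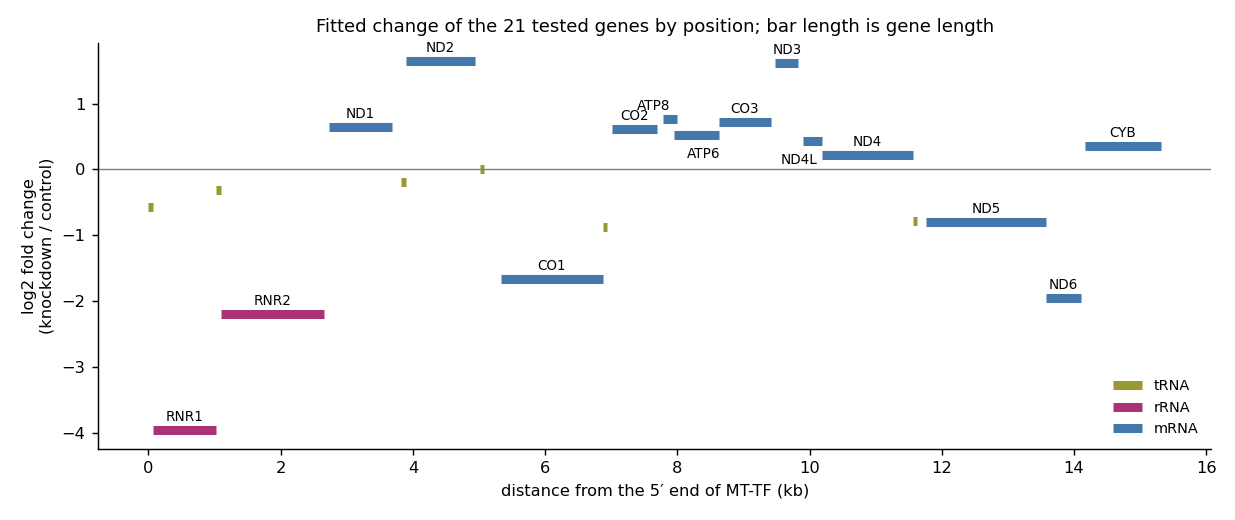
Fitted log2 fold change (knockdown over control, all 6 libraries) of the 21 tested mitochondrial genes against distance in kb from the 5′ end of MT-TF, with each bar as long as its gene. MT-CO1 lies at -1.67 between MT-ND2 at 1.64 and MT-CO2 at 0.61, the 7 mRNAs from MT-CO2 to MT-ND4 lie above 0, and the rRNAs lie at -3.97 and -2.20.

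The tRNAs were at the edge of detection. Their 10 genes with counts summed to 7.15 per 1000000 counts in control library 1 (exact 95% interval 6.30 to 8.07), 2.73 (2.02 to 3.61) in control library 2 and 1.70 (1.04 to 2.63) in control library 3. The knockdown libraries gave 4.81 (4.13 to 5.56), 3.03 (2.49 to 3.65) and 3.20 (2.67 to 3.80). These intervals cover counting error only, as reads without molecular identifiers are not independent molecules. Control library 1 was highest and control library 3 lowest, with the knockdown libraries between them. The group values of 3.86 ± 2.89 and 3.68 ± 0.981 per 1000000 counts (SD, n = 3 each) differed by less than the spread between libraries.

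MT-TF, the tRNA for phenylalanine and the first gene of the plus-strand transcript, had the most counts of any tRNA. Its sequence as annotated (chrM:577-647, plus strand), without the CCA that is added after cleavage, shows how short these targets are.
MT-TF: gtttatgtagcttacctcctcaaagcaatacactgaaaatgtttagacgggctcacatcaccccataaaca
MT-TF had 63, 21 and 3 counts in the controls and 38, 33 and 31 in knockdown (log2 fold change -0.58, SE 0.746, edgeR adjusted p = 0.688). MT-TS1, a serine tRNA on the minus strand, had 45, 15 and 4 counts in the controls and 23, 16 and 24 in knockdown (log2 fold change -0.87, SE 0.703, edgeR adjusted p = 0.491). Both had counts in every library, and their groups overlapped.

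The other tested tRNAs had fewer counts. MT-TV, for valine, had 35, 1 and 0 counts in the controls and 18, 11 and 18 in knockdown. MT-TM, for methionine, had 30, 0 and 2 counts against 16, 18 and 13. Control library 1 was highest and control libraries 2 and 3 lowest for both genes. MT-TA, for alanine, had 16, 7 and 3 counts against 29, 9 and 12. MT-TH, for histidine, had 27, 0 and 4 counts against 17, 4 and 11. A count of 0 allows up to 3 counts, which is 0.0749 to 0.256 per 1000000 counts over the 6 libraries. None of these 4 passed, with edgeR adjusted p between 0.737 and 1.00, and the sign of the fitted change of each depended on the libraries used.

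The filter removed 4 tRNAs with rows in the count table. MT-TL1, a leucine tRNA, had 9, 1 and 0 counts in the controls and 11, 2 and 5 in knockdown, and MT-TN, for asparagine, had 8, 3 and 0 against 12, 7 and 10. MT-TY, for tyrosine, had 17, 1 and 4 counts against 9, 5 and 0, and MT-TS2, a serine tRNA, had 10, 0 and 0 against 8, 6 and 4. Of the 12 tRNAs with TPM values alone, MT-TD, MT-TG, MT-TT and MT-TP were listed at 0 in all 6 libraries. TPM overstates such short genes beside the mRNAs: in control library 1 a single count was worth 2.68 TPM for MT-TF and 0.0185 TPM for MT-ND5.

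Copies of mitochondrial genes in the nuclear genome can take reads from the members, and 19 such pseudogenes and related genes were in the count table. Of the 12 tested, 1 was called, a share close to the 8.31% of all tested genes. MTCO2P2, on chromosome 18, is 95.6% identical to MT-CO2 over 203 aligned bases and stood at 149, 71.7 and 88.0 CPM in the controls and at 623, 396 and 491 CPM in knockdown. The groups did not overlap, and MTCO2P2 was 4.88-fold higher in knockdown (SE 0.31 on the log2 scale, edgeR adjusted p = 0.00924). Its call was lost without knockdown library 1 (edgeR adjusted p = 0.0663) or 3 (0.0664). It was also lost with limma-trend on log2(TPM + 1) and no filter (limma adjusted p = 0.0903). MTND2P28, 98.4% identical to MT-ND2, stood at 39.1, 10.7 and 13.1 CPM against 89.5, 56.1 and 65.4 (log2 fold change 1.74, edgeR adjusted p = 0.0690); without control library 1 it passed (2.55, edgeR adjusted p = 0.0146). MTATP6P1, 98.5% identical to MT-ATP6, stood at 11.1% of the MT-ATP6 level in controls and 11.3% in knockdown. Reads shared by such copies were split by estimate. With the counts of each copy added to the gene it copies, MT-ND2 and MT-ND3 were still the only mRNAs called.

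The nuclear subunits of the same complexes were compared with their mitochondrial partners. Of 73 tested subunits of complexes I, III, IV and V, 5 passed (6.85%, beside 8.31% of all tested genes), all lower in knockdown: NDUFV2 (1.96-fold, edgeR adjusted p = 0.0292), NDUFS3 (1.66-fold, 0.0313) and NDUFA9 (1.49-fold, 0.0427) of complex I, UQCRFS1 (1.69-fold, 0.0373), the Rieske protein of complex III, and ATP5F1A (2.03-fold, 0.00842), the alpha subunit of ATP synthase. The median log2 fold changes were -0.25 over 37 subunits of complex I, -0.45 over 9 of complex III, -0.32 over 11 of complex IV and -0.24 over 16 of complex V. Control library 2 had the highest summed CPM in every complex. For complex I the sums were 2528, 4127 and 2827 CPM in the controls and 2696, 2625 and 2679 CPM in knockdown. Only in complex V did all controls lie above all knockdown libraries (3099, 4604 and 3664 CPM against 3047, 3060 and 3071 CPM). No complex IV subunit was called by edgeR (unadjusted p under 0.05 for 2), DESeq2 or limma-voom, and limma-voom with quality weights called 1. With control library 1 left out, edgeR called 2 of the complex I subunits, 1 of complex III, 0 of complex IV and 2 of complex V. The mitochondrial mRNAs of complex I summed to 7.13, 2.43 and 1.53 times the CPM of its nuclear subunits in the controls and to 6.35, 5.97 and 6.77 times in knockdown. Control library 1 lay above the knockdown libraries and the other controls below them, and the groups overlapped in the other complexes as well.

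Of 95 tested nuclear genes for mitochondrial gene expression, in 6 lists, 2 were higher and 4 lower in knockdown (6.32%, beside 8.31% of all tested genes). Among 17 genes of transcription and maintenance of mitochondrial DNA, MTERF4, a partner of an rRNA methyltransferase, was 1.89-fold higher (edgeR adjusted p = 0.0258), and POLRMT, the RNA polymerase that makes all members, stood at 74.1 ± 6.79 CPM in controls and 53.2 ± 4.28 CPM in knockdown (edgeR adjusted p = 0.0721). Among 16 genes of RNA stability, FASTKD5, which acts in the processing of mRNAs not flanked by tRNAs, was 1.84-fold lower (edgeR adjusted p = 0.0148), while LRPPRC, which protects the mRNAs, stood at 173 ± 27.8 and 155 ± 5.82 CPM (edgeR adjusted p = 0.564; SD, n = 3 each). Of 19 aminoacyl-tRNA synthetases, SARS2 was 1.71-fold higher (edgeR adjusted p = 0.0358), and KARS1 (2.03-fold, 0.0112), which also serves the cytosol, and YARS2 (29.5 ± 1.44 CPM in controls, 19.7 ± 0.897 CPM in knockdown, 0.0471) were lower. None of 20 genes of RNA processing and modification, 13 translation factors and 10 biogenesis regulators was called by edgeR (unadjusted p under 0.05 for 5, 3 and 0). DESeq2 called 5 of the processing genes, 2 of the translation factors and 0 of the regulators, beside 18.8% of all genes, and limma-voom with quality weights called 3, 2 and 0. In the fit without control library 1, edgeR called 0 of the genes of transcription and maintenance, 1 of the processing genes, 1 of the stability genes, 0 of the translation factors, 2 of the synthetases and 1 of the regulators.

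Markers of host cell types were counted as human genes, so reads from mouse cells and from the tumour cells cannot be told apart. Those of smooth muscle were higher in knockdown. Of 8 smooth muscle markers, 4 passed, all higher (MYH11, TAGLN, ACTA2 and CNN1), and the summed level was 118 to 311 CPM in controls and 574 to 611 CPM in knockdown. Over all tested genes edgeR called 8.31%, DESeq2 18.8%, limma-voom with quality weights 19.1% and limma-voom without them 2348 of 19430. One of 6 tested fibroblast markers passed (PDGFRB, 2.35-fold higher, edgeR adjusted p = 0.0195), with sums of 62.2 to 250 CPM in controls and 221 to 222 CPM in knockdown. The endothelial sums were 3.10 to 4.38 CPM in controls and 6.45 to 8.06 CPM in knockdown, and edgeR called none of 6 (unadjusted p under 0.05 for 1), DESeq2 and limma-voom 1 each. Macrophage markers summed to 88.1 to 293 CPM in controls and 74.6 to 75.6 CPM in knockdown. Most of these sums was CD68 alone, at 96.0, 255 and 66.8 CPM in controls and 52.3, 51.7 and 51.6 CPM in knockdown. The 5 tested markers did not share a direction, with log2 fold changes of -1.43 to 2.05 and a median of 0.45. None of the 5 was called by edgeR (unadjusted p under 0.05 for 1), while DESeq2 called 1 and weighted limma-voom 1. The neutrophil and red cell sums were at most 4.05 and 1.48 CPM in any library, and MPO and the fibroblast marker LUM were at 0 TPM in all 6. In the fit without control library 1, edgeR called 6 of the smooth muscle, 3 of the fibroblast, 1 of the endothelial and 0 of the macrophage markers. That fit called 7.89% of all genes. The part of host cells in the mitochondrial values was not tested, and in bulk samples fewer cells of a type and less RNA per cell cannot be told apart.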

How the data were processed

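RNA was measured in 3 control and 3 GANAB knockdown libraries; per the labels' protocols, TRIzol extracts of total RNA (200 ng) entered a VAHTS Universal V6 kit. The sources used here do not give how RNA was selected, strandedness or any removal of mouse reads. GRCh38, Salmon, fastp and DESeq2 are named, per the submitters' processing notes, with no versions. Salmon assigns reads by a model, so overlapping genes, near-identical copies and genes on opposite strands can exchange reads. The authors deposited estimated counts per gene, written as whole numbers, and TPM values. The deposited knockdown columns carry an abbreviation for knockout; each was given to the sample of that group and number.

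Members were all symbols beginning with MT-, and all were named; of other lists, called genes and a few of the smallest p or highest level were named, from a rule of the 3 smallest p and the most abundant member. Members and lists were chosen with earlier results of these data known. Testing used edgeR 4.0.16 in R 4.3.3 (quasi-likelihood) on the counts of all libraries (11737837 to 40039584 counts), with filterByExpr (2073 genes removed), TMM, no covariate, and 2-sided p adjusted by Benjamini-Hochberg over 19430 genes at 0.05. The procedure was also run on simulated counts. These held no library set apart as control library 1 was, so that run does not cover the fits of the rRNAs. Alternatives were other scalings (1 from nuclear genes only), DESeq2 1.42.0, limma 3.58.1 (voom with and without weights, and trend on log2(TPM + 1) or log2(TPM + 0.1) with a mean of at least 1 TPM), other filters, the replicate number as a block and leaving out each library. Adding pseudogene counts to the gene they copy was chosen after seeing the data. Copies were aligned with blastn 2.17.0. Sequences and coordinates came from GENCODE release 29. One called gene of the lists is counted but not reported here by name.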

Additional observations from a re-analysis of the deposited data

Results flagged for a closer look

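Of the 12 tRNAs that have TPM values and were not among the counts, 3 reached a higher TPM in a knockdown library than in any control, 5 were highest in a control and 4 were at 0 throughout. MT-TI, for isoleucine, reached 5.69 TPM in knockdown library 3 against at most 2.81 TPM in a control. MT-TW, for tryptophan, reached 2.93 TPM in knockdown library 1 and was listed at 0 in every control. MT-TL2, a leucine tRNA, reached 5.91 TPM in knockdown library 2 and was listed at 0 in every control. In the other direction, MT-TQ reached 31.6 TPM in a control against at most 14.5 TPM in knockdown, MT-TC 51.9 against 21.7, MT-TE 42.1 against 25.7, MT-TK 5.48 against 0 and MT-TR 6.28 against 0. A single count of MT-TF was worth 2.68 to 9.51 TPM in these libraries, and no test was made.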

How the results depend on the processing

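The number of genes called over the whole table was 1614 and became 3655 with DESeq2, 3716 with limma-voom and quality weights, 828 with limma-trend on log2(TPM + 1), 526 with 0.1 added instead, 46 with 1 added and no filter, 566 with the replicate block and 62 to 5604 when a library was left out (5604 without control library 2). Deviations of same-numbered libraries from their group means correlated at 0.00223, 0.0171 and 0.0218. With 3 libraries per group, such values cannot show whether the numbers mark pairs or batches. Under the replicate block MT-ND2 and MT-ND3 were again the mRNAs called. The 2 mRNA calls became 3 with DESeq2 (MT-CO1 added), 5 with limma-voom and quality weights, 0 with limma-trend and no filter and 0 to 4 with a library left out (4 without control library 3: MT-ND2, MT-ND3, MT-CO1 and MT-ND6). The rRNA calls ranged from 0 to 2, with 2 without control library 1 and 1 without control library 2.

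The log2 ratio of the rRNA share was -2.18 and ranged from -2.72 to 1.19 with a library left out. That of the tRNA share was -0.07, 0.16 with pairing by replicate number, and -0.43 to 0.73 with a library left out. Some settings moved the median log2 fold change of all genes by over 0.1, to 0.23 with log2(TPM + 1), 0.28 with log2(TPM + 0.1), and 0.15 with TPM rescaled to nuclear genes, from 0.03. Of 412 alternative values for the 21 tested genes, 357 kept their direction and side of the threshold, 8 lost a call, 8 gained one and 39 changed sign, 34 of these in tRNAs.

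With a library left out, log2 fold changes ranged from -4.58 to 1.31 for MT-RNR1, -2.78 to 1.10 for MT-RNR2, -0.19 to 0.66 for MT-ND4, -1.32 to 0.16 for MT-ND5 and -0.051 to 0.91 for MT-CYB. For tRNAs they ranged from -1.08 to 0.22 for MT-TF, -0.87 to 3.43 for MT-TV, -0.78 to 2.38 for MT-TM, -0.66 to 0.36 for MT-TA and -1.37 to 0.81 for MT-TH.

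Other settings gave tRNAs values above 0. With log2(TPM + 1), MT-TF was at 0.088, MT-TV at 2.30, MT-TM at 1.96, MT-TA at 0.080 and MT-TH at 0.93, with and without the filter. With log2(TPM + 0.1), they were at 0.095, 3.44, 3.06, 0.080 and 2.00. With TPM rescaled to nuclear genes, MT-TV was at 2.21, MT-TM at 1.89 and MT-TH at 0.85. With limma-voom, MT-TV was at 0.90, MT-TM at 0.90 and MT-TH at 0.029, and with quality weights MT-TV was at 0.0072. Under the replicate block MT-TV was at 1.17 and MT-TM at 0.85. MT-TA was at 0.030 with upper-quartile scaling, 0.010 with no filter and 0.00028 with pseudogene counts added. The cause was not tested for any of these changes. The tRNA counts were low, at 0 to 63 per gene and library.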
